A study of Mus musculus with 24 samples.

Results

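The nucleolar and ribosome biogenesis programme of mouse macrophages was followed through 34 genes, taken by symbol from a list of Myc and genes whose products make and assemble ribosomal subunits. All 34 of the 34 symbols were found among the 24421 gene symbols of each library, and all 34 passed the filter on low counts, as did 14693 of the 24421. The libraries are bulk RNA sequencing of bone marrow-derived macrophages, which are macrophages matured in culture from marrow cells, of strain C57BL/6J at an age of 12 weeks. The 24 libraries fall into 6 groups of 4. Cells were either wild type (WT) or knocked out for OGT (KO), and of each genotype 4 libraries were left unstimulated (M0), 4 received LPS at 100 ng/ml and 4 received IL-4 at 10 ng/ml, with both agents acting over 12 hours. Which part of Ogt was deleted, and by what driver, is not stated in the sources available here. Libraries carry the label numbers 1 to 4 in WT and 5 to 8 in KO, and nothing in the labels says that they came from separate animals or cultures, so a p-value here reflects the spread between these libraries.

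Ribosomes are built in the nucleolus, where RNA polymerase I transcribes the ribosomal RNA precursor, small nucleolar ribonucleoproteins (snoRNPs) modify it, and large assembly machines cut and fold it into the small (40S) and large (60S) subunits. MYC, a transcription factor, is known to raise the transcription of many genes of this pathway, and cells that grow or prepare to divide usually raise them together. In macrophages, LPS is a bacterial product that signals through TLR4 and drives the inflammatory (M1) state, and IL-4 signals through STAT6 and drives the alternatively activated (M2) state. OGT is the enzyme that attaches O-GlcNAc, a single sugar, to nuclear and cytosolic proteins.

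Library totals ranged from 63429271 to 94942464 counts in 21 libraries. The other 3 libraries (WT LPS 1 and 2, KO LPS 7) were shallow, at 172771 to 209368 counts. A member held 619 to 54595 counts in a deep library (median 4222) and 0 to 68 in a shallow one (median 7), so a value from a shallow library carries a large counting error. Without these 3, 49 of the 52 member calls in the 4 LPS comparisons below were kept, and no called log2 value moved by more than 0.078. Calls were gained by 2 members for LPS in WT, 1 for LPS in KO, 1 for KO against WT in LPS and 2 for the difference of the LPS responses. Only libraries 3 and 4 of WT LPS then remain. A count fit gives libraries this shallow little weight, so leaving them out could move little. Values without them are given for Myc, for the leading members and for the counts of members, and the counts of other lists use all libraries. The KO libraries also fell into 2 sets, 5 with 6 and 7 with 8. In KO M0 the chi-square of counts per degree of freedom was 9.09 for 5 and 6 and 8.51 for 7 and 8, against 47.0 to 63.8 for pairs across the sets. Ogt itself was lower in KO, at 34.5 to 36.9 against 47.3 to 52.4 CPM (the count scaled to library size) in M0, 34.2 to 53.8 against 55.0 to 68.0 in LPS, and 31.9 to 34.8 against 49.2 to 58.2 in IL-4, with no overlap in any state. Where on the gene the remaining reads lie was not analysed here. The macrophage list (8 markers, none at 0) summed to 11761 to 13368 CPM in WT M0, 7300 to 9034 in KO M0, 15426 to 15960 in WT LPS, 8671 to 10652 in KO LPS, 5547 to 6175 in WT IL-4 and 4947 to 5210 in KO IL-4. The stromal list (8 markers, among them collagens, none at 0) summed to 10318 to 12016, 14752 to 19244, 11347 to 14204, 16314 to 18811, 7340 to 7894 and 10797 to 14098 CPM in the same order of groups. The 6 endothelial markers, none at 0, summed to 15.1 to 19.6 CPM in WT M0, 24.6 to 73.5 in KO M0, 20.6 to 48.9 in WT LPS, 85.4 to 126 in KO LPS, 20.4 to 23.9 in WT IL-4 and 19.5 to 44.5 in KO IL-4. B cell and erythroid markers summed to under 1 CPM in all 24 libraries. Neutrophil markers summed to 36.1 to 62.9 CPM in WT LPS, 29.8 to 59.8 in KO LPS and 9.86 to 32.4 in the other groups. T and NK markers reached at most 15.5 CPM (in KO M0) and dendritic markers at most 4.60 (in KO LPS). The stromal sum was thus higher in KO than in WT in each state and lower in IL-4 than in M0, and the part of these cells in the results below was not tested.

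IL-4 raised the whole set in WT cells. All 34 of the 34 members rose against WT M0, where 30.9% of all 14693 genes tested were called higher and 29.3% lower (60.1% in either direction). The median log2 fold change of the members was 0.78, against -0.01 over all genes, and the smallest and largest were 0.26 and 1.52. For every one of the 34 all 4 IL-4 libraries lay above all 4 M0 libraries, a separation seen in 29.8% of all genes. Summed over the members, the level went from 2355 to 2533 CPM in WT M0 to 3980 to 4229 CPM in WT IL-4. In bulk RNA, more cells that express a gene and more RNA per cell cannot be told apart. Over the same comparison 7 of 8 stromal markers and 6 of 8 macrophage markers fell, and of 28 genes of mitosis and DNA replication 26 rose, and their part in the rise of the members was not tested.

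Myc, which lies at chr15:61985341-61990361 of GRCm38, stood at 44.4, 48.8, 38.5 and 43.4 CPM in the 4 WT M0 libraries and at 129.8, 123, 122 and 122 CPM in the 4 WT IL-4 libraries. The 2 groups were far apart and each was tight. The rise was 2.84-fold (log2 fold change 1.504 ± 0.08 SE, adjusted p = 3.12e-14). Dkc1, which encodes dyskerin, the pseudouridine synthase at the core of the H/ACA snoRNPs, held 19.8, 19.9, 18.5 and 19.99 CPM in WT M0 and 56.2, 54.9, 57.5 and 55.4 CPM in WT IL-4. This was the largest change among the members in WT (log2 fold change 1.52 ± 0.08 SE, adjusted p = 7.01e-15, or 2.86-fold). Rrs1, a factor needed for assembly of the large subunit, went from 36.6, 40.5, 38.7 and 36.8 CPM to 94.5, 93.5, 86.6 and 89.4 CPM (log2 fold change 1.25 ± 0.08 SE, adjusted p = 3.25e-13).

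Among the other members the order by role ran as follows. The H/ACA snoRNP partners of dyskerin differed in size of response, with Nhp2 at 1.24, Gar1 at 0.85 and Nop10 at 0.53. The 3 members of the C/D snoRNP, the methylation complex of fibrillarin (Fbl), Nop56 and Nop58, had log2 fold changes between 0.82 and 0.97. Of the nucleolar phosphoproteins and chaperones, Nolc1, which carries snoRNPs between compartments, rose by 1.24 on the log2 scale, and Gnl3, the GTPase nucleostemin, by 1.09, with nucleolin (Ncl) and nucleophosmin (Npm1) below them. The RNA polymerase I group was lower, from 0.26 to 0.88, with the median of the 5 genes at 0.67. Rrp12, which acts in export and processing of the pre-ribosome, rose by 1.01, and the 5 genes of the small subunit processome, the machine that makes the first cuts on the 40S side, had a median of 0.76. The 3 late 40S factors (Nob1, Ltv1, Bysl) had a median of 0.62. Of the 7 genes of large subunit assembly, Nop16 rose by 0.98, and Pes1 had the smallest value, at 0.39. The DEAD-box helicases Ddx21 and Ddx18 completed the set. Npm1 has processed copies elsewhere in the genome, and Ncl, Nop56 and several others hold snoRNA genes in their introns. How the authors' counting treated such reads is not given, so the values of these genes are less certain.

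**Figure D1:**
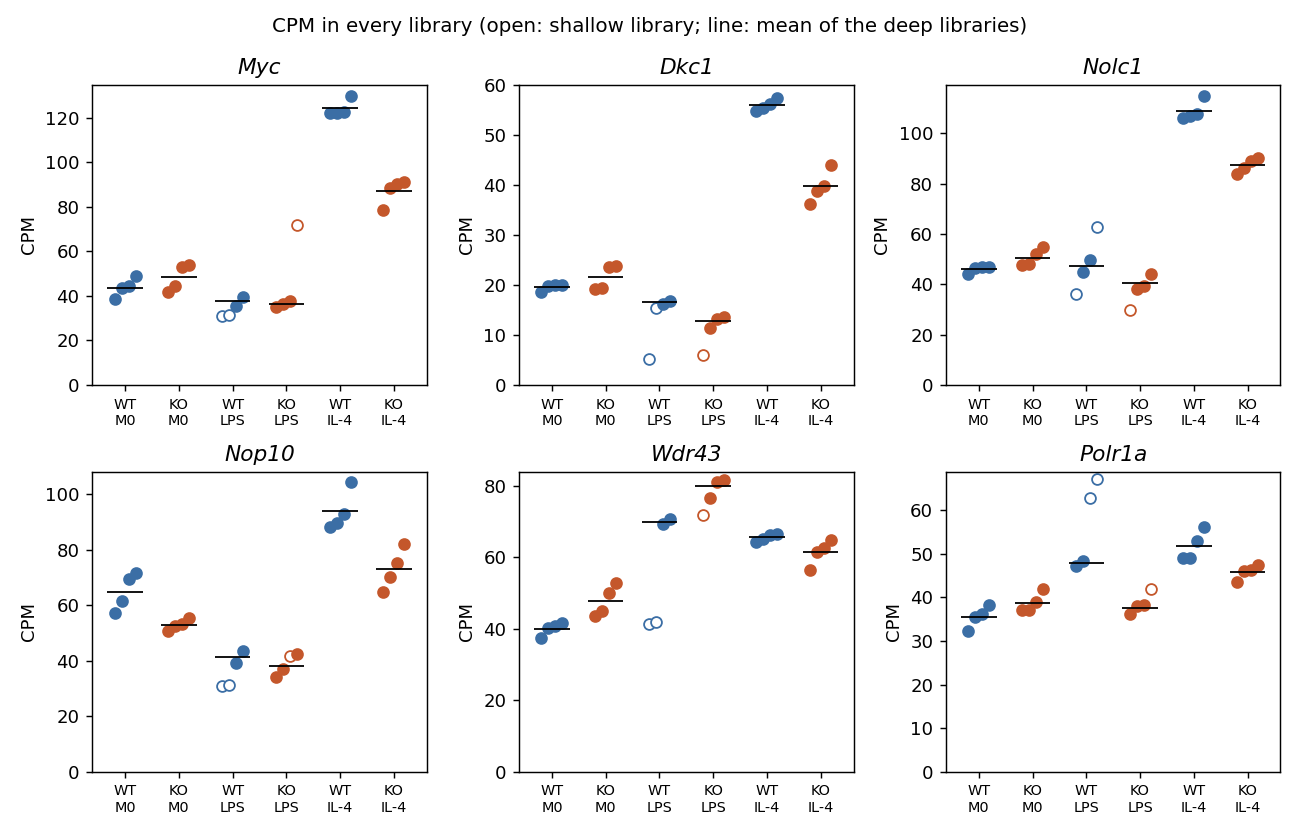
CPM (y axis, from 0) in every library of the 6 groups (x axis) for 6 members. Each point is a library, open points are the 3 shallow libraries, and lines are means of the deep libraries. In the panel of Myc, WT IL-4 lies highest and KO IL-4 next, and in those of Wdr43 and Polr1a the LPS groups of WT and KO part in opposite directions in the deep libraries.

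For the start sites of these genes, the RefSeq table of GRCm38.p6 gave a window of 250 bases before to 50 after a transcript start for 27 of the 34 members. Motifs were searched on both strands, and a match is a run of letters and no evidence of binding. The E-box CACGTG, the preferred letters of MYC and its partners, was in the windows of 5 of the 27 members (18.5%), namely Mybbp1a, Wdr43, Ltv1, Pes1 and Nop2, against 11.4% of the 11021 tested genes with a window and 7.15% of all 32851 windows. The spaced palindrome that STAT6 prefers, TTC and GAA with 4 free bases between them, was also in 5 of the 27 (18.5%), namely Dkc1, Nop14, Bysl, Nop16 and Ddx21, against 6.69% of tested genes and 6.95% of all windows. The letters CCGGAAG, of the ETS kind, were in 6 of the 27 (22.2%), against 18.4% and 8.86%. Few genes stand behind each share. Nop2 and Ltv1 hold both CACGTG and CCGGAAG, and in Nop2 these do not overlap. Dkc1 and Nop2 are shown for the 250 bases before the start, since Dkc1 rose most with IL-4 and both differed between genotypes in that response. The other 8 are shown only around the match. Capitals mark the match, in the direction of the gene.
Dkc1, chrX:75095604-75095853, plus strand: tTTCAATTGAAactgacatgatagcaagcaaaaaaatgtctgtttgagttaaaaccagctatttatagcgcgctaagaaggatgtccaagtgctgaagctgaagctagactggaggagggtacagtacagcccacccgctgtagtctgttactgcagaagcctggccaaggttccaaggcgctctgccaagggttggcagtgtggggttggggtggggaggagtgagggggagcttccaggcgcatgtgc
Nop2, chr6:125131633-125131882, plus strand: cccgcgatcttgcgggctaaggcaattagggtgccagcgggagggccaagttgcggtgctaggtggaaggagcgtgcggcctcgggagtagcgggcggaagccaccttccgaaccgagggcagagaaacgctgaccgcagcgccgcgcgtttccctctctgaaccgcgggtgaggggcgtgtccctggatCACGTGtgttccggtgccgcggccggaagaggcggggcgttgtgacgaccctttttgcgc
Mybbp1a, chr11:72441355-72441376, plus strand: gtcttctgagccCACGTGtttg
Wdr43, chr17:71616220-71616249, plus strand: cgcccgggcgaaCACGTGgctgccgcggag
Nop14, chr5:34660165-34660194, minus strand: acttgtgtacTTCTCGCGAAatacgggaag
Ltv1, chr10:13193092-13193121, minus strand: gccctgtggaccCACGTGtggagctgccgg
Bysl, chr17:47611604-47611633, minus strand: actccagaccTTCACGCGAAcggcggcccc
Pes1, chr11:3963965-3963994, plus strand: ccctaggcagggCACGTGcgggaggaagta
Nop16, chr13:54590070-54590099, minus strand: aaaactacatTTCCCAAGAAtccttgcgcg
Ddx21, chr10:62602516-62602545, minus strand: atcgcagcttTTCATGGGAAaatgttgcca
The E-box began 60 bases before the start in Nop2 and 2 to 40 bases after it in the other 4 genes. The 5 genes with the E-box had IL-4 log2 fold changes in WT of 0.92 (Nop2), 0.775 (Ltv1), 0.71 (Wdr43), 0.67 (Mybbp1a) and 0.39 (Pes1). Of these, Nop2 lay above the members' median of 0.783 and the rest below it, Ltv1 narrowly. The 5 genes with the STAT6-type palindrome ranged from 0.50 (Nop14) to 1.52 (Dkc1).

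In KO cells IL-4 raised the set as well, with a lower median. Against KO M0, 33 of the 34 members rose, where 26% of all genes were called higher and 25.2% lower (51.3% in either direction). The median log2 fold change was 0.50 and the range 0.12 to 0.94. In 33 genes the 4 IL-4 libraries all lay above the 4 M0 libraries (25.2% of all genes). The member not called was Ubtf, the RNA polymerase I factor UBF, named after its values were seen (log2 fold change 0.12 ± 0.06 SE, adjusted p = 0.0843). With the label number as a replicate block it passed, at 0.12 (adjusted p = 0.0401), and without the shallow libraries all 34 were called. Its 4 values overlapped with M0, and it was also the smallest change in WT. In KO, Rrs1 went from 38.1, 38.6, 38.6 and 43.2 CPM to 73.5, 75.1, 72.3 and 82.6 CPM (log2 fold change 0.94 ± 0.08 SE, adjusted p = 1.26e-10). Nhp2 went from 83.9, 77.4, 80.2 and 84.8 to 153, 157, 138 and 157 CPM (log2 fold change 0.89 ± 0.09 SE, adjusted p = 1.18e-08). Dkc1 went from 19.3, 19.4, 23.9 and 23.7 to 43.98, 39.9, 36.3 and 38.9 CPM (log2 fold change 0.88 ± 0.08 SE, adjusted p = 3.54e-10). In each of the 3 genes the lowest IL-4 library was well above the highest M0 library. Myc went from 41.8, 44.7, 53.9 and 53.1 to 88.4, 90.5, 90.98 and 78.8 CPM, a rise of 1.80-fold (log2 fold change 0.85 ± 0.08 SE, adjusted p = 2.31e-09). The next largest were Nolc1 at 0.79, Rrp12 at 0.78, Nop16 at 0.77 and Gar1 at 0.74, all called.

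The difference between the 2 responses was tested directly, as the IL-4 response of KO minus that of WT. The log2 difference was negative for all 34 members, with a median of -0.31 (0 over all genes) and a range of -0.65 to -0.07. For 7 members it passed the test and for none in the other direction, where 0.667% of all genes were called lower and 0.47% higher (1.14% in either direction). Myc had the largest difference (log2 difference -0.65 ± 0.11 SE, adjusted p = 0.00375), followed by Dkc1 (log2 difference -0.63 ± 0.11 SE, adjusted p = 0.00281) and Gnl3 (log2 difference -0.49 ± 0.09 SE, adjusted p = 0.00464). In CPM, Gnl3 stood at 31.1, 30.8, 28.4 and 29.2 in WT M0 and 62.9, 61.2, 64.6 and 65.2 in WT IL-4, and at 36.4, 36.3, 41.8 and 41.7 in KO M0 and 60.3, 58.1, 59.6 and 57.9 in KO IL-4. For Gnl3 the KO cells thus started from a higher level and ended just below the WT level, while for Myc and Dkc1 the M0 libraries of the genotypes overlapped and the IL-4 libraries did not. The other 4 were Nolc1 (log2 difference -0.45 ± 0.08 SE, adjusted p = 0.00434), Nop56 (log2 difference -0.45 ± 0.11 SE, adjusted p = 0.0442), Nop2 (log2 difference -0.35 ± 0.09 SE, adjusted p = 0.0499) and Ltv1 (log2 difference -0.33 ± 0.08 SE, adjusted p = 0.0435).

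The number called depended on the fit. With the label number as a replicate block in both genotypes, 23 members passed (4.23% of all genes called lower). Without KO libraries 5 and 6 it was 11 (1.99% of all genes), without 7 and 8 it was 4 (0.261%), and with DESeq2 it was 3 (0.34%). Leaving out 1 library at a time gave 4 to 11. WT M0 2 left out gave 11, and each of WT M0 1, 3 and 4, KO M0 7 and 8, WT IL-4 1, 2 and 4 and KO IL-4 7 left out gave 4. Myc, Dkc1, Gnl3 and Nolc1 kept their call in all 16 of these, with the difference of Myc between -0.71 and -0.58 and that of Dkc1 between -0.68 and -0.57. Nop56, Nop2 and Ltv1 lost it in 11, 13 and 10 of the 16, with adjusted p up to 0.11, 0.13 and 0.11. DESeq2 gave Dkc1 no adjusted p.

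**Figure D2:**
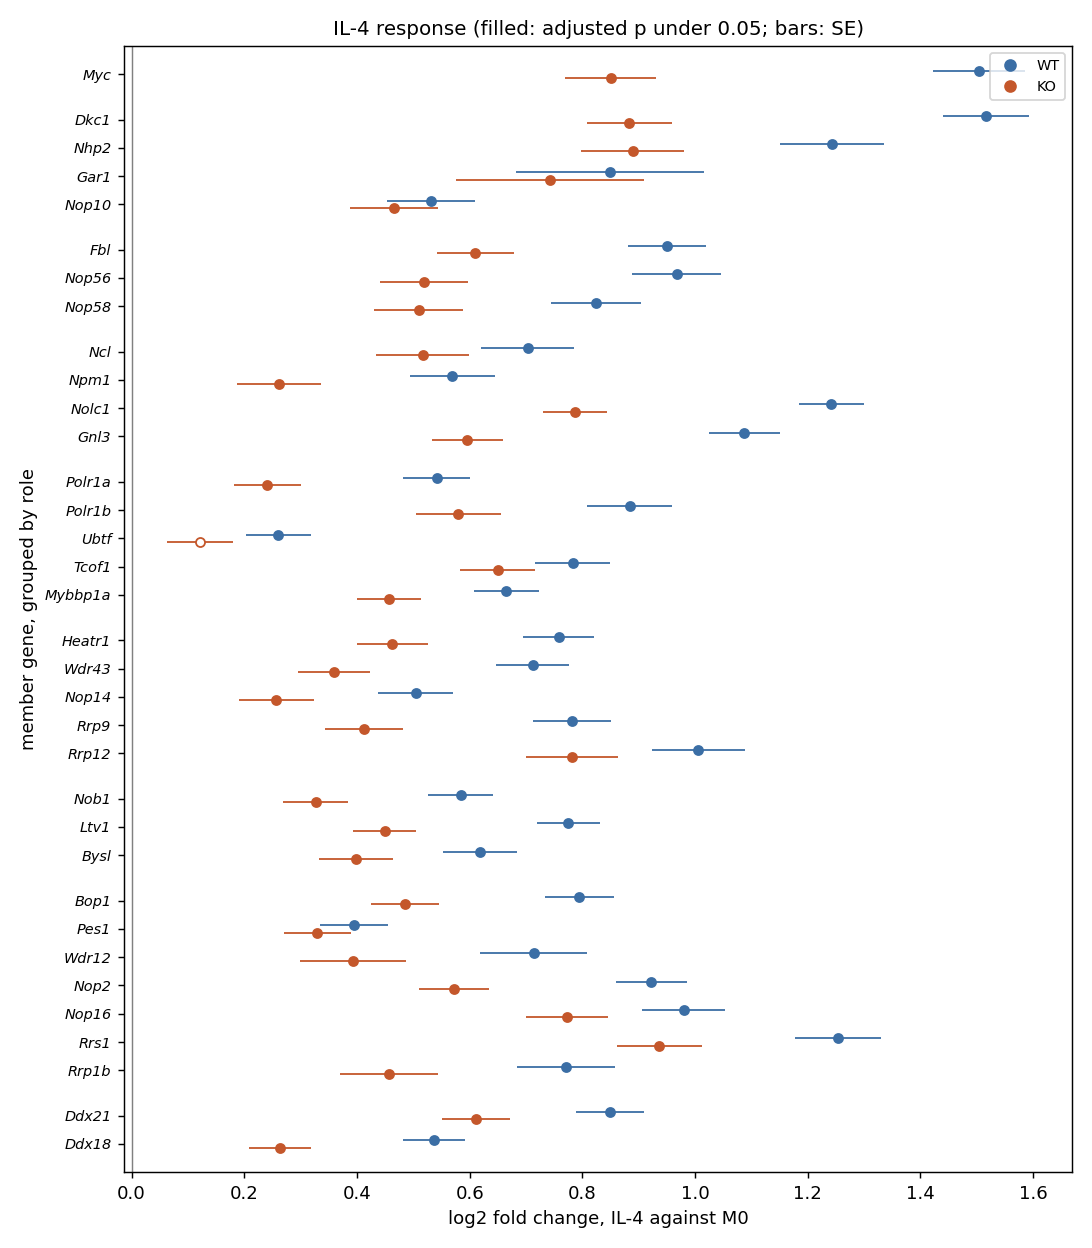
Log2 fold change of IL-4 against M0 (x axis) for the 34 members, grouped by role (y axis), in WT and KO. Points are estimates, bars are SE, and filled points have an adjusted p under 0.05. The KO point lies to the left of the WT point for every member, by 0.07 to 0.65.

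Compared within IL-4, KO cells held less of many members than WT cells. Of the 34, 18 were lower in KO and none higher, where 18.2% of all genes were called lower and 17.9% higher. In 21 members all 4 KO libraries lay below all 4 WT libraries (19.8% of all genes), and in 0 they lay above (17.3%). The member sum was 3483 to 3765 CPM in KO IL-4 against 3980 to 4229 in WT IL-4, with no overlap. Myc, at 88.4, 90.5, 90.98 and 78.8 against 129.8, 123, 122 and 122 CPM, was lower (log2 fold change -0.51 ± 0.08 SE, adjusted p = 2.47e-05), as was Dkc1, at 43.98, 39.9, 36.3 and 38.9 against 56.2, 54.9, 57.5 and 55.4 CPM (log2 fold change -0.49 ± 0.07 SE, adjusted p = 1.67e-05). Nhp2, an H/ACA snoRNP protein, held 153, 157, 138 and 157 CPM in KO and 213, 221, 181 and 197 in WT (log2 fold change -0.43 ± 0.09 SE, adjusted p = 7.52e-04). The groups did not overlap for any of these 3. Rrp9, which binds the U3 snoRNA, followed (log2 fold change -0.40 ± 0.07 SE, adjusted p = 7.63e-05), then Nop10 at -0.36, Rrp1b at -0.35, Nolc1 at -0.32 and Bop1 at -0.32. By role, 3 of 4 H/ACA genes, 2 of 3 C/D genes, 3 of 5 RNA polymerase I genes and 4 of 7 large subunit genes were lower. So were 2 of 3 late 40S genes, 1 of 5 processome genes, 2 of 4 nucleolar phosphoproteins and chaperones, and Myc, but 0 of 2 DEAD-box helicases. The 16 not called had log2 fold changes between -0.16 and 0.08. In the same libraries 7 of 8 stromal markers were higher in KO, and among the 28 genes of mitosis and DNA replication 27 were lower. Their part in the difference was not tested.

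LPS moved the members in both directions and by less. In WT, 10 of the 34 rose and 6 fell against M0, where 29.4% of all genes were called higher and 28.3% lower (57.7% in either direction). The share of risers equals the background and that of fallers is under it. With RLE scaling in place of TMM the split was 7 higher and 9 lower, the median of all genes went from -0.01 to -0.11, and 19 in place of 15 members had a negative value. Without the shallow libraries it was 12 higher and 4 lower, with Pes1 and Nop2 added to the risers. Myc held 44.4, 48.8, 38.5 and 43.4 CPM in WT M0 and 30.9, 31.4, 35.7 and 39.6 in WT LPS, of which the first 2 are shallow libraries with 6 counts each, and did not pass the test (log2 fold change -0.23 ± 0.10 SE, adjusted p = 0.0516; -0.21 without the shallow libraries). It passed with RLE scaling (-0.33, adjusted p = 0.00692) and in a fit of the 2 groups alone (-0.24, adjusted p = 0.0208). It also passed in 6 of the 8 fits that left out 1 library, namely each of WT M0 1 to 4 and WT LPS 1 and 2. Without any 1 of WT M0 1 to 4 the value lay between -0.42 and -0.31, so the change cannot be laid to 1 of these libraries. The values of the 8 ran from -0.42 (adjusted p = 8.52e-04, without WT M0 3) to -0.16. Tcof1, the treacle protein that supports RNA polymerase I, rose from 61.7, 53.6, 56.6 and 58.7 to 72.2, 88.9, 104 and 105 CPM (log2 fold change 0.83 ± 0.08 SE, adjusted p = 6.79e-10; 0.87 without the shallow libraries). Wdr43, of the small subunit processome, went from 40.8, 40.4, 37.5 and 41.5 to 41.3, 41.8, 70.7 and 69.2 CPM (log2 fold change 0.77 ± 0.08 SE, adjusted p = 1.93e-09; 0.81 without them). The shallow libraries of Wdr43, with 8 counts each, lie near the M0 level and the deep ones far above it. Nop10, the small H/ACA snoRNP protein, fell from 61.7, 71.5, 69.4 and 57.2 to 30.9, 31.4, 43.6 and 39.1 CPM (log2 fold change -0.67 ± 0.10 SE, adjusted p = 1.76e-06; -0.64 without them), with no overlap.

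The other risers were Bop1 at 0.54, Polr1a, the largest RNA polymerase I subunit, at 0.45, Rrp9 at 0.43, Ltv1 at 0.34, Rrs1 at 0.31, Bysl at 0.30, Ddx18 and Mybbp1a. The other fallers were Wdr12 at -0.36, Npm1 at -0.29, Ncl at -0.25, Dkc1 at -0.25 and Nop58 at -0.24. Ncl and Nop58 did not pass without the shallow libraries (adjusted p = 0.12 and 0.058). Wdr12, Dkc1 and Nop58 lost their call without WT LPS 3 (adjusted p = 0.111, 0.113 and 0.0801) and without WT LPS 4 (adjusted p = 0.157, 0.0704 and 0.0939), and Wdr12 with DESeq2 (adjusted p = 0.384). Rrs1 lost its call in 5 of 8 fits without 1 library (each WT M0 library and WT LPS 4, down to 0.16 without WT M0 4), with DESeq2 (adjusted p = 0.336) and with RLE scaling (adjusted p = 0.0537). Bysl lost it without WT M0 2, 3 or 4 (down to 0.14 without WT M0 4) and with DESeq2 (adjusted p = 0.0801). The 18 members not called had log2 fold changes between -0.29 and 0.17, of which Fbl passed with the replicate block (0.16, adjusted p = 0.0454). Leaving out WT M0 2, 3 or 4 gave 6 risers. Leaving out WT M0 1, 2 or 4 gave 10 fallers, and leaving out WT LPS 3 or 4, the deep libraries, gave 3.

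In KO, 3 of the 34 rose and 15 fell after LPS, where 31.2% of all genes were called higher and 36% lower (67.3% in either direction). Without the shallow library it was 4 and 14. Dkc1 fell from 19.3, 19.4, 23.9 and 23.7 to 11.4, 13.3, 5.98 and 13.6 CPM, where library 7 of the LPS group is shallow and held 1 count (log2 fold change -0.76 ± 0.09 SE, adjusted p = 1.41e-08; -0.72 without it). Wdr43 rose from 43.7, 44.9, 52.9 and 49.99 to 76.6, 81.8, 71.8 and 81.2 CPM (log2 fold change 0.73 ± 0.07 SE, adjusted p = 4.84e-10; 0.78 without it). Tcof1 rose from 52.8, 56.2, 56.9 and 54.5 to 81.5, 81.9, 95.7 and 70.7 CPM (log2 fold change 0.51 ± 0.07 SE, adjusted p = 5.96e-07; 0.54 without it). All 4 LPS values lay beyond the M0 values for these 3 genes. Myc held 37.5, 36.2, 71.8 and 34.9 CPM in KO LPS, where the high value of library 7 rests on 12 counts, against 41.8, 44.7, 53.9 and 53.1 in KO M0, and fell (log2 fold change -0.40 ± 0.09 SE, adjusted p = 2.75e-04; -0.38 without it).

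The other riser, Ddx18 (0.16), turned to -0.01 when only KO M0 and KO LPS were fitted, and to -0.033, -0.030 and -0.0027 without KO M0 5, 6 and 7. It also lost its call without KO M0 8, without KO numbers 5 and 6, with DESeq2 and with RLE scaling. Further fallers were Nop10 at -0.48, Wdr12 at -0.47, Npm1 at -0.37, Nop58 at -0.36, Polr1b at -0.36 and Gnl3 at -0.35. Without KO numbers 5 and 6, Nop10 (-0.23, adjusted p = 0.154), Wdr12 (-0.29, adjusted p = 0.067) and Polr1b (-0.22, adjusted p = 0.111) did not pass. Then came Nolc1, Rrp1b, Heatr1, Nob1, Nop16, Nop56 and Bysl. The 16 members not called had log2 fold changes between -0.19 and 0.11, of which Ncl (-0.21, adjusted p = 0.00855) and Ubtf (-0.13, adjusted p = 0.0333) passed with the replicate block. The count of fallers rose to 25 in a fit of the 2 groups alone. There 45.4% of all genes were called lower, and their median was -0.23 in place of -0.07. It rose to 27, 28, 25 and 24 without KO M0 5, 6, 7 and 8, fits for which the share of all genes is not given here. Genes of mitosis and DNA replication fell with LPS in both genotypes (26 of 28 in WT, 25 of 28 in KO), and their part in these results was not tested.

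**Figure D3:**
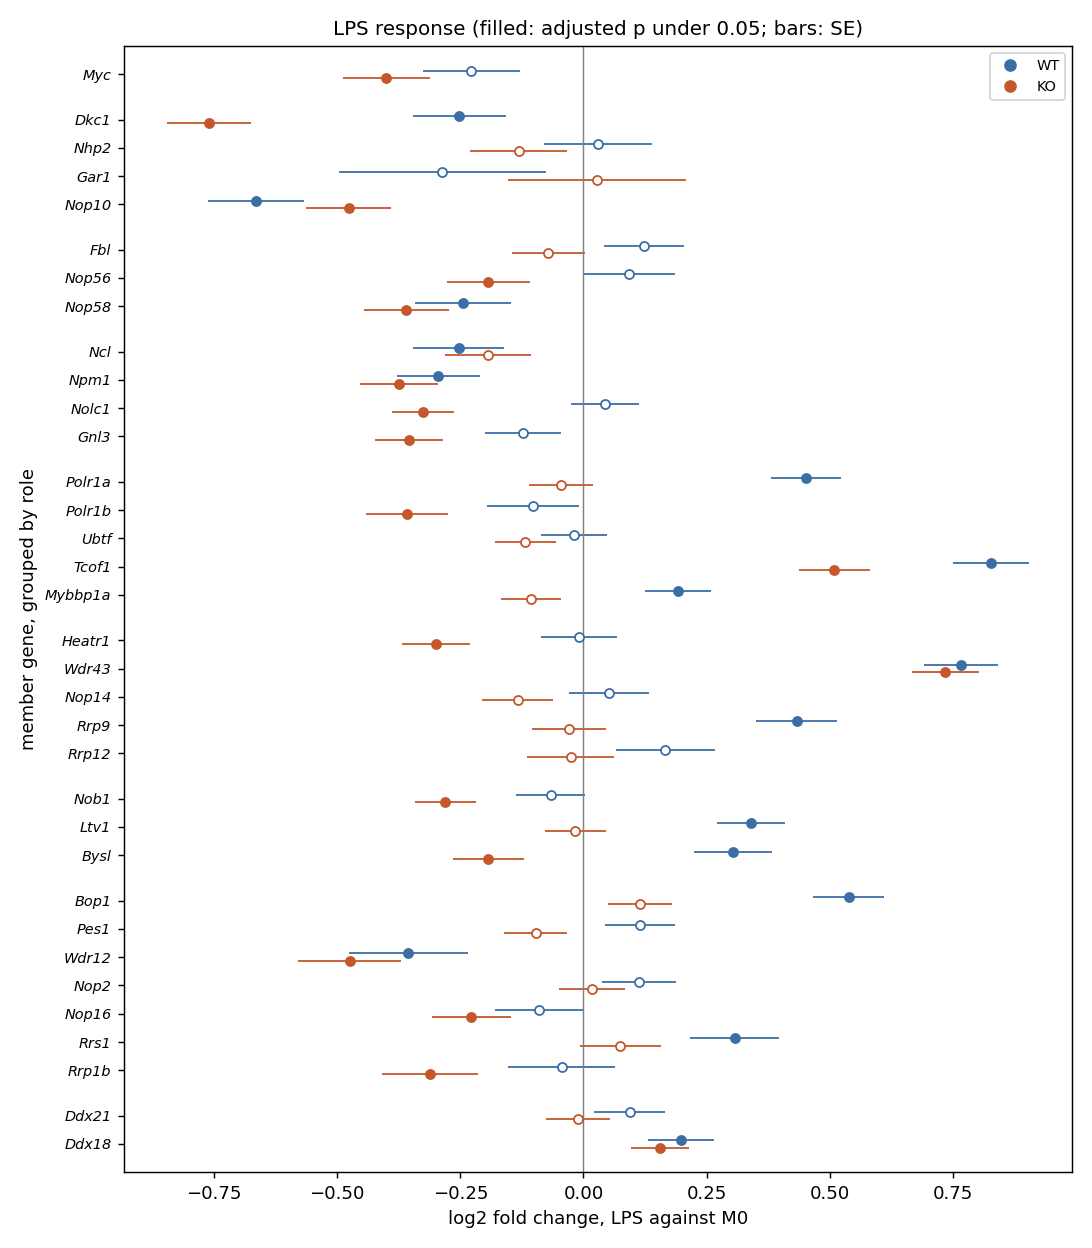
Log2 fold change of LPS against M0 (x axis) for the 34 members, grouped by role (y axis), in WT and KO. Points are estimates from all libraries, bars are SE, and filled points have an adjusted p under 0.05. Wdr43 and Tcof1 lie right of 0 in both genotypes, and Polr1a, Bop1 and Rrp9 are filled in WT only.

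The LPS response of KO minus that of WT was negative for 31 of 34 members, with a median of -0.20 against -0.02 over all genes. For 8 members the difference passed the test, all lower in KO, where 4.79% of all genes were called lower and 6.62% higher. Dkc1 had the largest (log2 difference -0.51 ± 0.13 SE, adjusted p = 0.00916), followed by Bysl (log2 difference -0.50 ± 0.11 SE, adjusted p = 0.003), a factor of late 40S maturation, and Polr1a (log2 difference -0.50 ± 0.10 SE, adjusted p = 0.00129). Bysl held 39.1, 35.3, 38.4 and 33.8 CPM in WT M0 and 25.8, 78.5, 45.97 and 43.9 in WT LPS, against 35.7, 35.1, 39.9 and 38.4 and 35.01, 31.97, 23.9 and 31.03 in KO. Polr1a held 38.2, 35.5, 32.3 and 36.2 and 67.05, 62.8, 47.2 and 48.3 CPM in WT, against 37.1, 37.04, 41.9 and 39 and 36.2, 38.3, 41.9 and 38 in KO. Without the shallow libraries the differences were -0.49 for Dkc1, -0.45 for Bysl and -0.44 for Polr1a. In both Bysl and Polr1a the deep WT LPS libraries were above WT M0, and the KO LPS values were near or below KO M0. The others were Rrp9 at -0.46, Bop1 at -0.42, Nolc1 at -0.37, Ltv1 at -0.36 and Mybbp1a at -0.30. Without WT LPS 4, Bysl and Polr1a kept their call and the other 6 lost it. Mybbp1a lost it in 5 of 16 fits without 1 library, in the fit of the groups compared and without KO 5 and 6, which also ended the calls of Rrp9 and Nolc1. Ltv1 lost it with DESeq2 and without KO 7 and 8, and Dkc1 with DESeq2 (adjusted p = 0.105). That of Myc did not pass (log2 difference -0.17 ± 0.13 SE, adjusted p = 0.44). The count was 10 without the shallow libraries, 13 with the replicate block (9.33% of all genes called lower, with Tcof1, Nop56, Heatr1, Nob1 and Rrs1 added), 5 without WT LPS 3 and 2 without WT LPS 4.

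In LPS itself, 9 of 34 members were lower in KO than in WT and 1 was higher, where 14.6% of all genes were called lower and 16.2% higher. Rrp9 held 31.5, 29.5, 23.9 and 32.5 CPM in KO and 46.4, 26.2, 44.4 and 43.96 in WT (log2 fold change -0.49 ± 0.09 SE, adjusted p = 1.32e-04). Bysl differed with the values given above (log2 fold change -0.47 ± 0.08 SE, adjusted p = 1.22e-04). Bop1, a partner of Pes1 and Wdr12 in the PeBoW complex of the large subunit, held 79.9, 70.04, 65.8 and 69.7 CPM in KO and 124, 78.5, 95.7 and 101 in WT (log2 fold change -0.43 ± 0.08 SE, adjusted p = 1.15e-04). For each of the 3 genes 1 shallow WT library reached into the KO range, and the deep libraries did not overlap. Over all 4 libraries a group, 2 members lay wholly below (4.83% of all genes) and 1 wholly above (8.04%) in KO. Without the shallow libraries the log2 fold changes were -0.49, -0.45 and -0.42. Tcof1 at -0.38, Polr1a at -0.37, Dkc1 at -0.37, Rrp1b at -0.30, Ltv1 at -0.26 and Nolc1 at -0.23 were lower as well, and Wdr43 was higher at 0.23. Rrp1b lost its call with a random replicate block (limma-voom, adjusted p = 0.102), with DESeq2, with RLE scaling, with no filter, in the fit of the 2 groups alone, without KO 5 and 6 and in 6 of 8 fits without 1 library (WT LPS 2, 3 and 4 and KO LPS 5, 7 and 8; largest adjusted p 0.174). Dkc1 and Ltv1 lost theirs with DESeq2 and without WT LPS 4. Wdr43 lost its call with DESeq2, with no filter and in the fit of the 2 groups alone. Myc did not differ by the test (log2 fold change -0.03 ± 0.10 SE, adjusted p = 0.862). Without the shallow libraries 10 members were lower and 1 higher. Without KO 5 and 6, which leaves the shallow KO LPS 7 and KO LPS 8, 7 were lower and 5 higher (14.6% of all genes each way). The member median was then 0.015 in place of -0.080. Without KO 7 and 8, 13 were lower and 1 higher (16.6% and 21.1% of all genes), with a median of -0.123. Without WT LPS 4 the count of lower members was 5. That of higher members was 0 without WT LPS 4, KO LPS 6 or KO LPS 8 and 3 without KO LPS 5. In LPS, 6 of 8 stromal and 2 of 6 endothelial markers were higher in KO, 5 of 8 macrophage markers were lower and 2 higher, and of the genes of mitosis and DNA replication 15 of 28 were lower and 1 higher. Their part in these differences was not tested.

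In unstimulated cells the members that differed between genotypes were mostly higher in KO. KO M0 held more of 8 members and less of 1, where 11.8% of all genes were called higher and 10.5% lower. The median log2 fold change was 0.12, against 0.02 over all genes. Gnl3 held 36.4, 36.3, 41.8 and 41.7 CPM with the knockout and 31.1, 30.8, 28.4 and 29.2 CPM without it (log2 fold change 0.39 ± 0.06 SE, adjusted p = 8.59e-05). Heatr1, of the small subunit processome, stood at 49.97, 47.9, 52.9 and 49.8 against 42.3, 36.4, 37.4 and 40.5 CPM (log2 fold change 0.36 ± 0.06 SE, adjusted p = 2.12e-04). Rrp12 stood at 23.7, 22.5, 27.8 and 24.2 against 20.2, 19.4, 21.1 and 18.6 CPM (log2 fold change 0.31 ± 0.08 SE, adjusted p = 0.00794). All 4 KO values were above all 4 WT values for these 3 genes. Wdr43 at 0.26, Nop56 at 0.22, Nob1 at 0.21, Mybbp1a at 0.20 and Ddx18 at 0.15 were also higher, and Nop10 was lower at -0.29. Ddx18 lost its call in 7 of 8 fits without 1 library (all but WT M0 2, down to 0.094 without KO M0 8), and Nop56 in 6 of 8 (all but KO M0 5 and 6, down to 0.15 without KO M0 7). Both also lost it without the shallow libraries (adjusted p = 0.0525 and 0.0507), with DESeq2 and in the fit of the 2 groups alone. Without KO 7 and 8 the calls of Wdr43, Nop56, Nob1, Mybbp1a and Ddx18 were lost. Rrp12 lost its call without KO M0 7, Nob1 without WT M0 4 or KO M0 8, Mybbp1a without WT M0 2, WT M0 4 or KO M0 7, and Wdr43 with DESeq2. Myc stood at 41.8, 44.7, 53.9 and 53.1 against 44.4, 48.8, 38.5 and 43.4 CPM and did not pass (log2 fold change 0.14 ± 0.08 SE, adjusted p = 0.211). KO libraries 7 and 8 held the 2 highest Myc values. With KO libraries 7 and 8 alone, that is without 5 and 6, the difference of Myc passed at 0.26 (adjusted p = 0.015), and without 7 and 8 it was -0.03.

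The count of higher members in KO M0 was 14 without KO 5 and 6 (14.1% of all genes) and 3 without KO 7 and 8 (9.55%). It was 4 without WT M0 4, 4 without KO M0 7, 5 without KO M0 8 and 5 with DESeq2 (5.21% of all genes). In M0, 6 of 8 stromal and 4 of 6 endothelial markers were higher in KO and 4 of 8 macrophage markers lower. Of the genes of mitosis and DNA replication 19 of 28 were lower in KO and 0 higher, and the part of these lists in the differences was not tested.

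**Figure D4:**
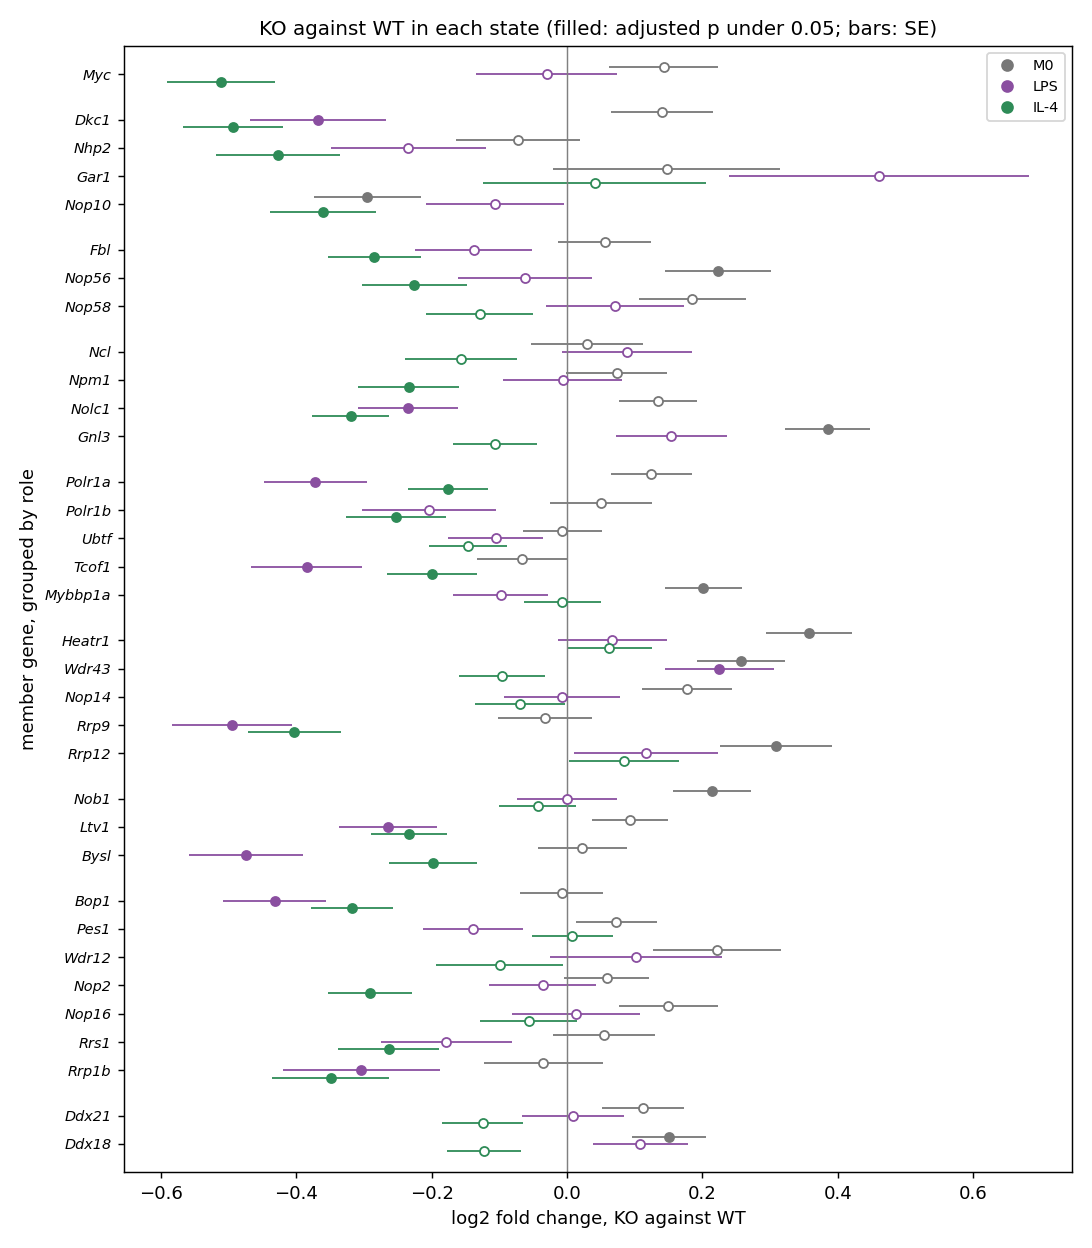
Log2 fold change of KO against WT (x axis) for the 34 members, grouped by role (y axis), in M0, LPS and IL-4. Points are estimates, bars are SE, and filled points have an adjusted p under 0.05. Filled M0 points lie right of 0 except Nop10, and filled IL-4 points lie left of 0, with Myc at -0.51 the farthest.

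By the means of the deep libraries, WT IL-4 was the highest of the 6 groups for 28 of the 34 members, KO IL-4 for 4, and each LPS group for 1. KO IL-4 was second for 25. The lowest group was KO LPS for 14 members, WT M0 for 12, WT LPS for 6 and KO M0 for 2. For Myc the order was WT IL-4, KO IL-4, KO M0, WT M0, WT LPS and KO LPS, of which both IL-4 groups stood apart from each other and from the rest, and the neighbours among the other 4 overlapped in range. Per kilobase of annotated exon (the GENCODE M21 union over transcripts), Npm1 was the most abundant member in WT M0, at 139 CPM per kb. Nhp2 followed at 74.9 and Nop10 at 58.6, and Wdr12 was the lowest at 1.72. Myc stood at 16.1 CPM per kb in WT M0 and 45.7 in WT IL-4. An exon union overstates the length of genes with long unused exons, so these levels are lower bounds for such genes.

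Other genes of the pathway, 152 in 5 lists, were counted beside the members. With IL-4, 130 rose and 1 fell in WT (median 0.45), and 111 rose and 1 fell in KO (median 0.27). The genes with the smallest adjusted p in WT included Wdr46 (1.17), Utp18 (0.82) and Emg1 (0.83) of the 40S side and Rrp8 (1.08), Ppan (1.04) and Nifk (0.80) of the 60S side. Within IL-4, 55 of the 152 (36.2%) were lower in KO and 3 (1.97%) higher, against 18.2% and 17.9% of all genes. The IL-4 response of KO minus that of WT was negative for 144 of the 152. It passed the test for 8 (5.26%, against 0.667% of all genes called lower), all lower, among them Ppan (-0.51), Tbl3 (-0.40) and Nifk (-0.38). With LPS, 56 rose and 16 fell in WT, and 46 rose and 47 fell in KO. As shares these were 36.8% and 10.5% in WT, against 29.4% and 28.3% of all genes, and 30.3% and 30.9% in KO, against 31.2% and 36% of all genes, so the KO share of risers was near that of all genes. LPS risers in both genotypes included Riok3 (1.10 in WT, 1.24 in KO) and Rcl1 (1.21 and 1.13) of the 40S side, and Ddx24 (1.28 and 1.57) and Eif6 (1.03 and 1.32) of the 60S side. In M0, 31 (20.4%) were higher and 6 (3.95%) lower in KO, against 11.8% and 10.5% of all genes. In LPS, 23 (15.1%) were higher and 35 (23%) lower in KO, against 16.2% and 14.6% of all genes. The share higher in KO LPS was thus near that of all genes.

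Among 28 known MYC targets with roles outside the nucleolus, IL-4 raised 26 and lowered 1 in WT, and raised 23 and lowered 1 in KO. Tfrc, the transferrin receptor, rose most clearly (2.58 in WT, 2.35 in KO), with Ppat, the first enzyme of purine synthesis (1.25 and 0.96). Within IL-4, 11 of the 28 were lower in KO and 2 higher, and 4 had a smaller IL-4 response in KO by the test of the difference, namely Shmt2 (-0.46), Impdh2 (-0.40), Odc1 (-0.45) and Srm (-0.41), enzymes of one-carbon, purine and polyamine synthesis. Of 35 cytosolic ribosomal protein genes tested, 34 rose with IL-4 in WT (median 0.36) and 19 in KO (0.19), and 29 were lower in KO within IL-4. Of 22 RNA polymerase III genes, 11 rose in each genotype, and 2 fell in WT and 1 in KO. Of all genes, 30.9% rose with IL-4 in WT and 26% in KO, and 18.2% were lower in KO within IL-4. Among 11 tested genes of the wider MYC and MAX network, IL-4 raised Mlx (0.57 in WT, 0.46 in KO). It lowered Mycl, a relative of Myc (-2.39 and -1.44), Mxi1 (-0.58 and -0.37) and Mxd1 (-0.42 and -0.38). Mycl was low in M0, at 0.65 to 0.93 CPM in WT and 0.53 to 1.11 in KO. In LPS it held 0 to 1.69 CPM in WT and 5.17 to 11.96 in KO, shallow libraries included. LPS moved these 11 genes both ways, with 5 higher and 4 lower in WT and 6 higher and 5 lower in KO. Of all genes, 29.4% rose and 28.3% fell in WT, and 31.2% and 36% in KO. Among the risers were Mxd1, an antagonist of MYC (2.86 in WT, 3.66 in KO), and Max, the common partner (0.97 and 1.03). Comparisons with IL-4 and with LPS share the M0 libraries, so their values are set side by side and not read as separate evidence.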

How the data were processed

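RNA sequencing of 24 libraries was deposited as raw read counts per gene. Per the submitters' processing notes the authors' tools included TopHat2 2.1.0 and HTSeq 0.9.1 with the mouse build mm10, and no source used here gives the strand setting of the counting. Summary lines, which name no gene, held 8.76 to 9.98% of the reads and were left out. All 24 libraries entered 1 fit in edgeR 4.0.16 (R 4.3.3) with TMM scaling, 1 coefficient per group and filterByExpr, and the quasi-likelihood test was adjusted by Benjamini-Hochberg over 14693 genes. Genes with an adjusted p under 0.05 were called, and 9 contrasts were computed. CPM used the TMM-scaled library sizes, and SE is the log2 fold change divided by the root of F. The fit was tested on simulated data with genes changed 1.5-fold. For IL-4 in WT 98.5% of 67 were called (17 false calls among 14329 genes). For LPS in WT it was 86.6% of 67 (9 among 14340), and for KO against WT in IL-4 92.4% of 66 (14 among 14339). For the difference of the IL-4 responses it was 77.6% of 67 (12 among 14331). Simulated libraries were drawn independently around the WT M0 mean, without the 2 sets of KO libraries. These rates therefore do not cover that structure. Each simulation also held genes changed 2-fold and 4-fold, and the false calls come from that same fit. Few genes were changed, all in 1 group, while 60.1% of all genes were called for IL-4 in WT. The rates do not cover changes of that breadth. Floors cover counting error only, and a shallow library's 3 counts equal 15.5 to 17.9 CPM.

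The members and lists were chosen with earlier results of these data known. Named members are Myc and, in each comparison, up to 8 called per direction by size of change, with CPM in each library for up to 3. From each other list, up to 4 called genes with the smallest adjusted p could be named. Alternatives were DESeq2 1.42.0, RLE scaling, no filter, only the groups compared, the replicate block, limma 3.58.1 (voom with a random block), fits without the 3 shallow libraries or without KO numbers 5 and 6 or 7 and 8, and each library left out. Same-numbered KO libraries deviated together (correlations over 7202 genes of 0.24 to 0.64 between M0 and IL-4, and 0.11 to 0.25 between M0 and LPS), so the numbers were taken to pair KO libraries. In 4 of 8 such KO pairs a library correlated best with another number, always within the sets 5 and 6 or 7 and 8, so the numbers also carry these 2 sets. In WT they did not (-0.19 to 0.70, and -0.08 to 0.09), and 3 of 8 pairs there correlated best with their own number. The replicate block and the random block used the numbers of both genotypes. Their results thus also rest on a pairing in WT that these correlations do not show.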

Additional observations from a re-analysis of the deposited data

Results flagged for a closer look

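Among the 204 member and group combinations, 15 (7.35%) had 1 library set apart from the other 3 by more than the 95% critical value of Dixon's test, and chance alone marks about 1 in 20 groups. In 10 of the 15 it was a shallow library. These were Myc in KO LPS 7 (71.8 CPM), Ddx18 in KO LPS 7 (29.9), Dkc1 in WT LPS 2 (5.23), Rrp9 in WT LPS 2 (26.2), Ltv1 in WT LPS 2 (41.8), Nop16 in WT LPS 2 (10.5), Gnl3 in WT LPS 1 (15.5), Pes1 in WT LPS 1 (87.7), Wdr12 in WT LPS 1 (61.9) and Nop2 in WT LPS 1 (20.6). The other 5 came from deep libraries, with Myc in WT IL-4 1 (129.8 CPM), Dkc1 in WT M0 3 (18.5), Nolc1 in WT M0 3 (43.9), Rrs1 in KO M0 8 (43.2) and Ddx21 in KO LPS 8 (139.7).

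The LPS response differed between genotypes by the test of the difference for 8 members, as log2 differences of KO minus WT for Dkc1 (-0.51), Bysl (-0.50), Polr1a (-0.50), Rrp9 (-0.46), Bop1 (-0.42), Nolc1 (-0.37), Ltv1 (-0.36) and Mybbp1a (-0.30). The IL-4 response differed for 7, with Myc at -0.65, Dkc1 at -0.63, Gnl3 at -0.49, Nolc1 at -0.45, Nop56 at -0.45, Nop2 at -0.35 and Ltv1 at -0.33.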

How the results depend on the processing

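Counts of members called depended on the setting as follows. The share of all genes called moved with the setting too. For higher in KO M0 it went from 5.21% (DESeq2) to 14.1% (without KO numbers 5 and 6). With DESeq2, LPS raised 6 in WT, KO M0 was higher for 5, KO LPS was higher for 0 and lower for 5, and the IL-4 response was lower in KO for 3. In fits of only the groups compared, LPS lowered 25 in KO and KO LPS was higher for 0, as it was with no filter. Without KO numbers 5 and 6, KO was higher for 14 in M0 and 5 in LPS, the LPS response was higher for 1 and the IL-4 response lower for 11. Without 7 and 8, KO M0 was higher for 3 and the IL-4 response lower for 4. The replicate block gave 13 lower LPS responses and 23 lower IL-4 responses in KO and moved the counts of the LPS and IL-4 responses within a genotype by under 1.5 times. Leaving out 1 library gave 6 to 10 risers and 3 to 10 fallers for LPS in WT, 2 to 4 and 12 to 28 in KO, 34 risers for IL-4 in WT and 31 to 33 in KO. For KO against WT it gave 4 to 7 higher in M0, 0 to 3 higher and 5 to 11 lower in LPS and 14 to 19 lower in IL-4, and for the differences of response 2 to 11 (LPS) and 4 to 11 (IL-4) lower. Ddx18 after LPS in KO turned to -0.013 in the fit of its groups alone (adjusted p = 0.889) and to -0.033, -0.030 and -0.0027 without KO M0 5, 6 and 7, with 0.21 as the highest value when 1 library was left out (KO LPS 5). The genotype difference of Myc turned to -0.026 in M0 without KO 7 and 8, to 0.028 in LPS with DESeq2, 0.061 without WT LPS 4 (the lowest value was -0.071, without WT LPS 3) and 0.010 without KO LPS 8, and to 0.0087 for its LPS difference without KO 7 and 8. The cause was not tested. Of 641 values of named genes under other settings 583 kept their call and direction, 51 lost the call, 3 gained it and 4 reversed. Of 816 values with 1 library left out 713 kept both, 92 lost the call, 6 gained it (all Myc after LPS in WT) and 5 reversed. Leaving out 1 library also moved values in common. For IL-4 in WT all 8 such fits lay below the main value for Myc (1.38 to 1.499 against 1.504) and Dkc1 (1.43 to 1.47 against 1.52). A call lost or gained in such a fit thus cannot be laid to the left-out library alone. Depth limits the LPS groups, where 3 libraries hold a median of 7 counts per member.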
